A study of Homo sapiens with 3 samples.

Results

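GDF15, CCNG1 and TP53INP1 are 3 genes that the transcription factor p53 is known to switch on. They were followed in A549 cells, a widely used line from a human lung cancer, after knockdown of TAZ or YAP. The genes were found by symbol in the array platform's annotation, where each had 1 probe set, and all 3 were among the 10768 genes kept after a filter on dim probe sets, out of 14884 genes with a named probe set. They had been picked with their levels on these arrays known, so their own values are a description and carry no test. The data were 1-colour Affymetrix whole-transcript arrays of cells transfected with an siRNA against TAZ (siTAZ), an siRNA against YAP (siYAP) or a control siRNA (siNC), with RNA taken 48 h later. A level here is the authors' RMA value of a probe set, read as log2, and a difference is 1 level minus another on that scale; the dim-probe filter was a mean of 4.27. Each group had 1 array, 3 in all, so values are given without an error, and differences could not be set against the spread between cultures.

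p53 is held low by the ubiquitin ligase MDM2, is stabilised by DNA damage and other stress, and then activates genes for cell cycle arrest, cell death, DNA repair, metabolism and secreted signals. GDF15 is a secreted stress cytokine of the TGF-beta superfamily that signals through the receptor GFRAL with its partner RET, and it is also activated by the ATF4 and CHOP stress response. CCNG1 encodes cyclin G1, which binds protein phosphatase 2A and MDM2 and belongs to the feedback on p53. TP53INP1 encodes a stress protein that helps the kinase HIPK2 act on p53 and that also binds LC3-family proteins in autophagy. TAZ and YAP, encoded by WWTR1 and YAP1, are the co-activators at the end of the Hippo pathway and act mainly through TEAD transcription factors.

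The promoters of GDF15 and CCNG1 are shown because both genes were highest in the siTAZ array, and because letters of the TEAD and p53 motifs can be looked for there. RefSeq's promoter table (GRCh38.p14) matched 2 of the 3 genes, and TP53INP1 was not matched. CCNG1 had 2 entries there, of which 1 is shown. The sequences are the 250 bases before the transcription start, on the plus strand at chr19:18385908-18386157 for GDF15 and at chr5:163437321-163437570 for CCNG1. Capitals mark every match, on either strand, to the TEAD core motif (GGAATG), the box that positions transcription starts (TATAAA), the NF-Y box (CCAAT), the Sp1 box (GGGCGG), the E-box (CACGTG) or the p53 half-site consensus.
GDF15: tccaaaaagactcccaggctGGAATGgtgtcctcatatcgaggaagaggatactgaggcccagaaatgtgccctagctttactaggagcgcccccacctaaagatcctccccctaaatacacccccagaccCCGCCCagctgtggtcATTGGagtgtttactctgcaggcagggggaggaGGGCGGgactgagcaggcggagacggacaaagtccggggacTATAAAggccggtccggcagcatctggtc
CCNG1: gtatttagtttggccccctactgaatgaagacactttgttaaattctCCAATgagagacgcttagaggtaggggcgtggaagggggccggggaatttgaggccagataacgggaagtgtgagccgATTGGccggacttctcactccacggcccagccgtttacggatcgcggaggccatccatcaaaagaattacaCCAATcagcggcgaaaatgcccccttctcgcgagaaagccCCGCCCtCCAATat
The GDF15 promoter held 1 TEAD core motif, which starts 230 bases before the transcription start, 1 TATA box starting 29 bases before it, 1 NF-Y box and 2 Sp1 boxes. The CCNG1 promoter held 4 NF-Y boxes and 1 Sp1 box, and no TEAD core motif or TATA box. None of the matches overlapped. Over 27305 promoters cut to the same 250 bases, 1 for each gene, the TEAD core motif was in 12.0%, the TATA box in 11.2%, the NF-Y box in 33.1%, the Sp1 box in 42.2% and the E-box in 6.48%. A p53 half-site match was in neither sequence, in 5.50% of all promoters and in 7 of the 69 promoters of listed p53 targets (10.1%). In those 69 promoters the Sp1 box was in 79.7%, the NF-Y box in 31.9%, the TEAD core motif in 10.1%, the E-box in 7.25% and the TATA box in 5.80%. The p53 half-site was thus not the only motif with a higher share there, and these shares were not tested. These matches describe letters in a short window and say nothing of binding.

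The siRNA targets were checked first. WWTR1 had a level of 5.81 in the siTAZ array, against 6.50 in the siNC array on the log2 scale, which left 62.2% of the control level, and it had the same value in the siYAP and siNC arrays. YAP1, by the brighter of its 2 probe sets, was at 6.87 in the siYAP array, against 8.45 in the siNC array, which left 33.5%. By that probe set it was 0.21 lower in the siTAZ array than in the siNC array. The dimmer YAP1 probe set, near the filter level, fell less, to 4.38 in the siYAP array against 4.95 in the siNC array (-0.57). The 3 arrays had medians of 4.26 (siTAZ), 4.27 (siYAP) and 4.28 (siNC) over 53617 probe sets. Of the A549 check markers, 7 lung epithelial genes were kept and had a median difference of 0 in both knockdowns. That median rests on identical values, which 4 of the 7 had in each knockdown compared with siNC. In the siTAZ array KRT18 was 0.18 lower, EPCAM 0.10 lower and NKX2-1, a dim gene, 0.07 higher than in siNC. Few markers of other cell types had a named probe set above the filter: CD14 and CD68 of 6 for leukocytes, VWF of 4 for endothelium, and LUM and THY1 of 5 for fibroblasts. CD68 was 0.57 and 0.59 higher and LUM 0.69 and 0.66 higher in the siTAZ and siYAP arrays than in the siNC array, THY1 was 0.16 lower in both, and CD14 was identical in the siTAZ and siNC arrays and 0.06 higher in the siYAP array. DCN (2.38 on every array, under the filter) and VWF (4.42 on every array) had one value throughout. The part of these markers in the results was not tested.

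GDF15 and CCNG1 were higher, and TP53INP1 lower, in the siTAZ array than in the other two arrays. In each of the 3 genes the siYAP level lay between the siTAZ and siNC levels, and nearer to siNC. The 3 p53-responsive genes thus did not share a direction.

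The log2 level of GDF15 was 8.75 (siTAZ) and 8.21 (siYAP), against 7.97 (siNC). The siTAZ level was 1.73-fold above siNC (a log2 difference of 0.79), and the siYAP level 1.19-fold above it (0.25). GDF15 was the only one of the 3 genes past 1.5-fold in any comparison. By the size of the differences it ranked 27 from the highest of 10768 genes in the siTAZ comparison and 483 from the highest in the siYAP comparison. At 1.5-fold, 0.762% of kept genes were higher than in siNC after siTAZ and 0.520% after siYAP. Because the gene was picked with these levels in view, nothing is read from its count against those shares.

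CCNG1 had a log2 level of 8.88 (siTAZ) and 8.41 (siYAP), against 8.31 (siNC). It was 1.49-fold higher in the siTAZ array (0.57), just under 1.5-fold, and 1.07-fold higher in the siYAP array (0.10). It ranked 88 and 1467 from the highest in these comparisons. CCNG2, the closest relative of CCNG1, had the same value of 5.78 on all 3 arrays.

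For TP53INP1 the log2 level was 5.29 (siTAZ) and 5.62 (siYAP), against 5.65 (siNC). It was 1.28-fold lower in the siTAZ array (-0.36) and 1.02-fold lower in the siYAP array (-0.03). It ranked 329 from the lowest in the siTAZ comparison and 1977 from the lowest in the siYAP comparison. The siTAZ array thus held the lowest level of this gene, whereas the siYAP and siNC levels were close. Its relative TP53INP2 was 0.23 higher in both knockdown arrays, at 6.48 in each, against 6.24 in the siNC array.

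**Figure D1:**
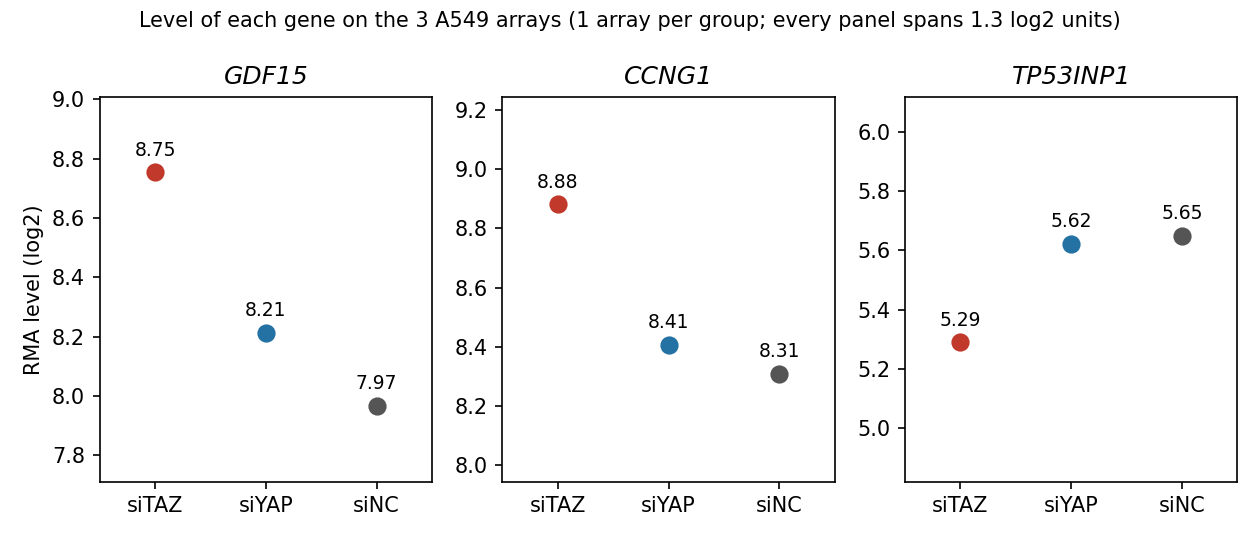
RMA level on the log2 scale (vertical axis, 1.3 units in every panel) of each gene in the siTAZ, siYAP and siNC arrays, 1 point per array and no error bars. GDF15 and CCNG1 were highest in the siTAZ array (8.75 and 8.88) and TP53INP1 was lowest there (5.29), with the siYAP level between siTAZ and siNC in each panel.

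The comparison of the knockdowns with each other does not subtract the control array. GDF15 was 1.45-fold lower in the siYAP array than in the siTAZ array (-0.54) and ranked 25 from the lowest of the 10768 genes. CCNG1 was 1.39-fold lower (-0.47) and ranked 37 from the lowest. TP53INP1 was 1.26-fold higher (0.33) and ranked 231 from the highest. The middle 95% of all kept genes lay between -0.25 and 0.31 in this comparison. The 3 differences lay outside that range of genes, as the choice of the genes may have set. For siTAZ minus siNC the range was -0.40 to 0.38, with GDF15 and CCNG1 outside it and TP53INP1 inside. For siYAP minus siNC it was -0.30 to 0.32, with all 3 genes inside. At 1.5-fold, 0.176% of kept genes were lower and 0.566% higher in the siYAP array than in the siTAZ array, and none of the 3 genes was among them. Since the siTAZ and siYAP differences from siNC share the control array, they are given side by side only.

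**Figure D2:**
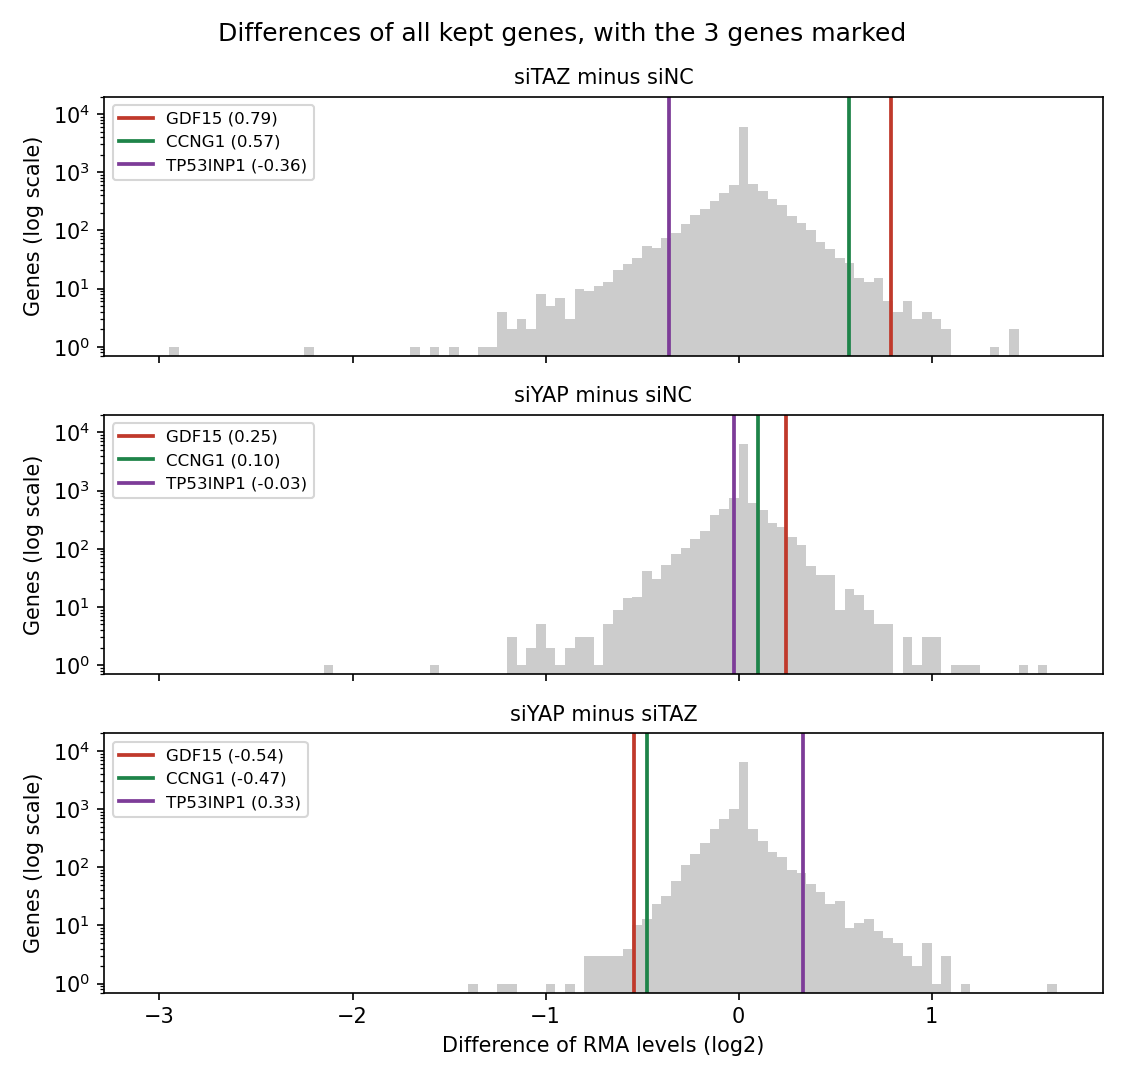
Number of genes (log scale) by difference of log2 RMA level for the 10768 kept genes, in bins of 0.05, with genes of identical values in the bin just above 0. Coloured lines mark GDF15, CCNG1 and TP53INP1, at 0.79, 0.57 and -0.36 for siTAZ minus siNC, at 0.25, 0.10 and -0.03 for siYAP minus siNC, and at -0.54, -0.47 and 0.33 for siYAP minus siTAZ.

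A position of siYAP strictly between siTAZ and siNC, with 3 different values, was found in 1608 of the 10768 kept genes (14.9%) and in 17 of 46 other p53 targets (37%). Among genes that had 3 different values at all, these shares were 52.4% of 3067 genes and 70.8% of 24 p53 targets. Many genes had the same deposited value on a pair of arrays: 48.5% for siTAZ and siNC, 51.3% for siYAP and siNC, and 53.9% for siYAP and siTAZ. GDF15, CCNG1 and TP53INP1 each had 3 different values.

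The wider p53 programme was read from 5 lists of p53 targets with 83 genes in all, of which 52 had a named probe set and 49 were kept. MDM2 and CDKN1A, the gene of the p21 cell cycle inhibitor, had no named probe set in the annotation and have no value here. Of the 46 kept targets other than GDF15, CCNG1 and TP53INP1, 23 were higher, 11 lower and 12 identical in the siTAZ array compared with siNC, or 50% higher and 23.9% lower, beside 29.7% and 21.7% of all kept genes. At 1.5-fold, ACER2 and SFN were higher and THBS1 lower among the 46, beside 0.762% of all kept genes higher and 1.02% lower. In the siYAP array 19 of the 46 were higher, 11 lower and 16 identical, or 41.3% higher and 23.9% lower, beside 27.0% and 21.7% of all kept genes. THBS1 alone was past 1.5-fold, on the lower side, beside 0.381% of all kept genes. Identical values made up 48.5% (siTAZ) and 51.3% (siYAP) of all kept genes, beside the 12 and 16 of the 46 targets. The higher and lower shares, here and for the lists below, thus depend in part on how many values were identical. The median of all 49 targets was 0.04 in the siTAZ comparison and 0 in the siYAP comparison, beside 0 for all kept genes in both. The siTAZ median was 0 when dim probe sets were not filtered out.

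Among secreted targets, KITLG, the ligand of the receptor KIT, stood nearest to GDF15, 0.28 higher in the siTAZ array and 0.16 higher in the siYAP array than in siNC. THBS1, an adhesive matrix glycoprotein that is also a known YAP/TAZ target, went the other way, 0.70 and 0.61 lower. LIF, a cytokine of the interleukin-6 family, was 0.12 and 0.22 lower. The secreted targets therefore had no common direction.

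Among cell cycle targets, SFN, the 14-3-3 sigma protein of the G2 checkpoint, was 1.55-fold higher in the siTAZ array and 1.48-fold higher in the siYAP array than in siNC. Unlike CCNG1, it had nearly the same level in both knockdowns, 9.32 in the siYAP array against 9.39 in the siTAZ array. The kinase gene PLK2 was 0.12 lower in the siTAZ array and 0.09 lower in the siYAP array, and SERTAD1, a regulator of CDK4, was 0.07 higher in both. Of the 7 kept cell cycle targets, CCNG1 included, 3 were higher (42.9%), 2 lower (28.6%) and 2 identical in each knockdown compared with siNC, beside 29.7% and 21.7% of all kept genes for siTAZ and 27.0% and 21.7% for siYAP.

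Of the 19 kept cell death targets, TP53INP1 included, 10 were higher (52.6%), 5 lower (26.3%) and 4 identical in the siTAZ array compared with siNC, beside 29.7% and 21.7% of all kept genes. In the siYAP array 10 were higher (52.6%), 3 lower (15.8%) and 6 identical, beside 27.0% and 21.7%. TRIAP1, a small inhibitor of apoptosis that p53 activates, was closest to CCNG1 in its values, with levels of 8.18 (siTAZ) and 7.82 (siYAP), against 7.69 (siNC). SPATA18, which acts in mitochondrial quality control, was 0.37 higher in the siTAZ array and 0.20 higher in the siYAP array. The apoptosis effectors BAX (0.24 and 0.27) and BBC3 (0.24 in both) differed from siNC by like amounts in the knockdowns. APAF1, the core of the apoptosome, was 0.39 and 0.49 lower, so that, unlike TP53INP1, its siYAP level was the lowest of the 3.

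The 4 kept DNA repair targets included PCNA, the sliding clamp of DNA polymerase, which was 0.56 higher in the siTAZ array and 0.37 higher in the siYAP array than in siNC. RRM2B, the p53-induced ribonucleotide reductase subunit, was 0.28 and 0.04 higher, and ASCC3, a helicase, 0.13 and 0.04 higher. POLK, a translesion polymerase, was 0.03 lower in both.

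Of the 14 kept targets in metabolism and stress, 6 were higher (42.9%), 2 lower (14.3%) and 6 identical in the siTAZ array, beside 29.7% and 21.7% of all kept genes. In the siYAP array 2 were higher (14.3%), 4 lower (28.6%) and 8 identical, beside 27.0% and 21.7%. ACER2, an alkaline ceramidase of the Golgi, was 1.61-fold higher in the siTAZ array and 1.38-fold lower in the siYAP array than in siNC. TIGAR, which lowers glycolytic flux, was 0.29 higher in the siTAZ array, with siYAP and siNC levels of 7.35 each. NADSYN1, an enzyme of NAD synthesis, was 0.38 and 0.17 higher. SAT1, a polyamine acetyltransferase, was 0.34 and 0.13 lower, on the same side as TP53INP1.

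**Figure D3:**
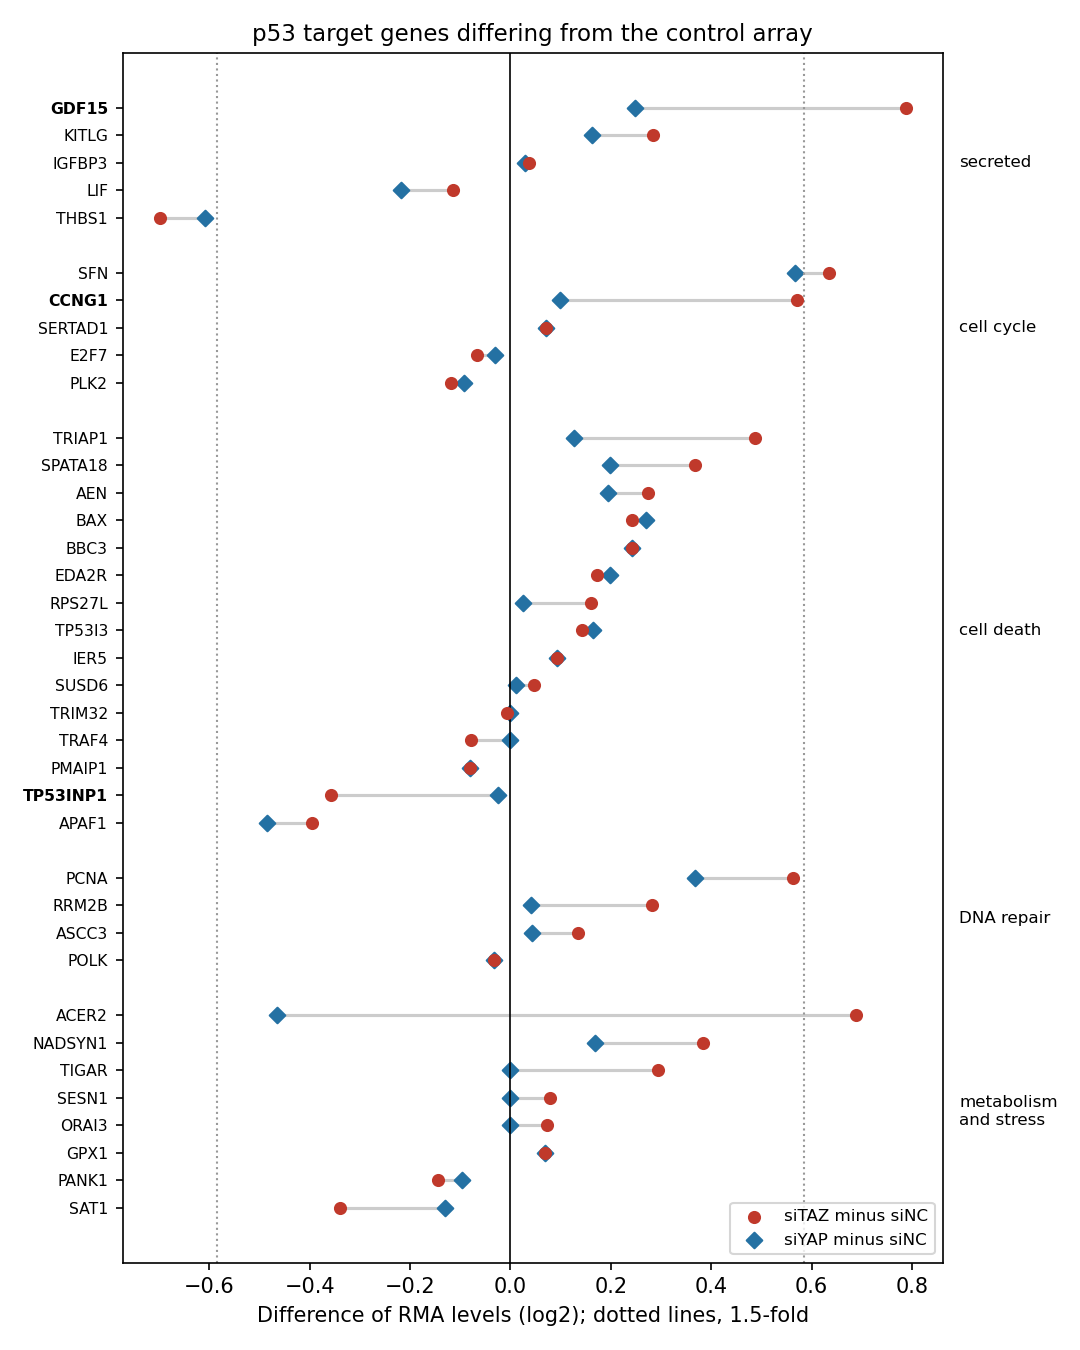
Difference of log2 RMA level from the siNC array (horizontal axis) for each kept p53 target that differed from siNC in at least 1 knockdown, grouped by role, with siTAZ minus siNC as circles and siYAP minus siNC as diamonds. GDF15 (0.79), ACER2 (0.69) and SFN (0.63) lay past 1.5-fold on the higher side in the siTAZ array, and THBS1 past it on the lower side in both knockdowns.

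Set directly against each other, the 46 other targets had 18 genes lower, 10 higher and 18 identical in the siYAP array compared with the siTAZ array. The lower share was 39.1%, beside 26.2% of all kept genes, and the higher share 21.7%, beside 19.9%. ACER2 was the only one past 1.5-fold (-1.15), beside 0.176% of all kept genes lower and 0.566% higher by that much. These shares were not tested, and the lists were written by general knowledge with earlier results of these arrays known.

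The list around p53 and its regulators held 23 genes, of which 10 had no named probe set and 11 were kept. None of the 11 reached 1.5-fold in any comparison. Of all kept genes, 0.762% were higher and 1.02% lower by that much for siTAZ minus siNC. The shares were 0.520% and 0.381% for siYAP minus siNC, and 0.566% and 0.176% for siYAP minus siTAZ. With shares this small, a count of 0 among 11 genes says little of them. In the siTAZ array 2 of them were higher (18.2%) and 3 lower (27.3%) than in siNC, beside 29.7% and 21.7% of all kept genes. In the siYAP array 1 was higher (9.09%) and 4 were lower (36.4%), beside 27.0% and 21.7%. HIPK2, the kinase that works with TP53INP1, was 0.16 lower in the siYAP array and had levels of 9.40 in both the siTAZ and siNC arrays. The p53 acetyltransferase CREBBP was 0.13 higher and the deubiquitinase USP7 0.12 lower in both knockdowns than in siNC. MDM4, the partner of MDM2 in restraining p53, had one value of 7.47 on all 3 arrays. Genes known to be lowered through p53, p21 and the DREAM repressor complex did not share a lower level. In the siTAZ array 9 of 16 were higher (56.2%) and 3 lower (18.8%), beside 29.7% and 21.7% of all kept genes, with a median of 0.09. In the siYAP array 10 were higher (62.5%) and 3 lower (18.8%), beside 27.0% and 21.7%, with a median of 0.06. PLK1, a mitotic kinase, was 0.63 and 0.46 higher, while the transcription factor FOXM1 was 0.65 lower in the siTAZ array and 0.07 higher in the siYAP array. E2F1 was 0.07 and 0.42 higher, and CDC25A, a phosphatase that opens the way into S phase, 0.03 and 0.37 lower.

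The other known route to GDF15, the ATF4 and CHOP stress response, had 21 kept genes of 31. The remaining 10 had no named probe set and have no value here. In the siTAZ array 11 were higher (52.4%), 2 lower (9.52%) and 8 identical compared with siNC, beside 29.7% higher and 21.7% lower of all kept genes. In the siYAP array 8 were higher (38.1%), 3 lower (14.3%) and 10 identical, beside 27.0% and 21.7%. None of the 21 reached 1.5-fold in either knockdown. Among all kept genes 0.762% were higher and 1.02% lower by that much after siTAZ, and 0.520% and 0.381% after siYAP. A count of 0 among 21 genes therefore says little of this response. ATF4 had one value of 8.43 on all 3 arrays, while DDIT3, which encodes CHOP, had levels of 4.88 (siTAZ) and 4.91 (siYAP), against 4.91 (siNC). EIF2AK4, the amino acid sensor GCN2, was 0.28 higher in the siTAZ array and identical in the siYAP and siNC arrays. ATF5 was 0.26 and TRIB3 0.20 higher in both knockdowns, and PSPH, an enzyme of serine synthesis, 0.20 and 0.27 higher.

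**Figure D4:**
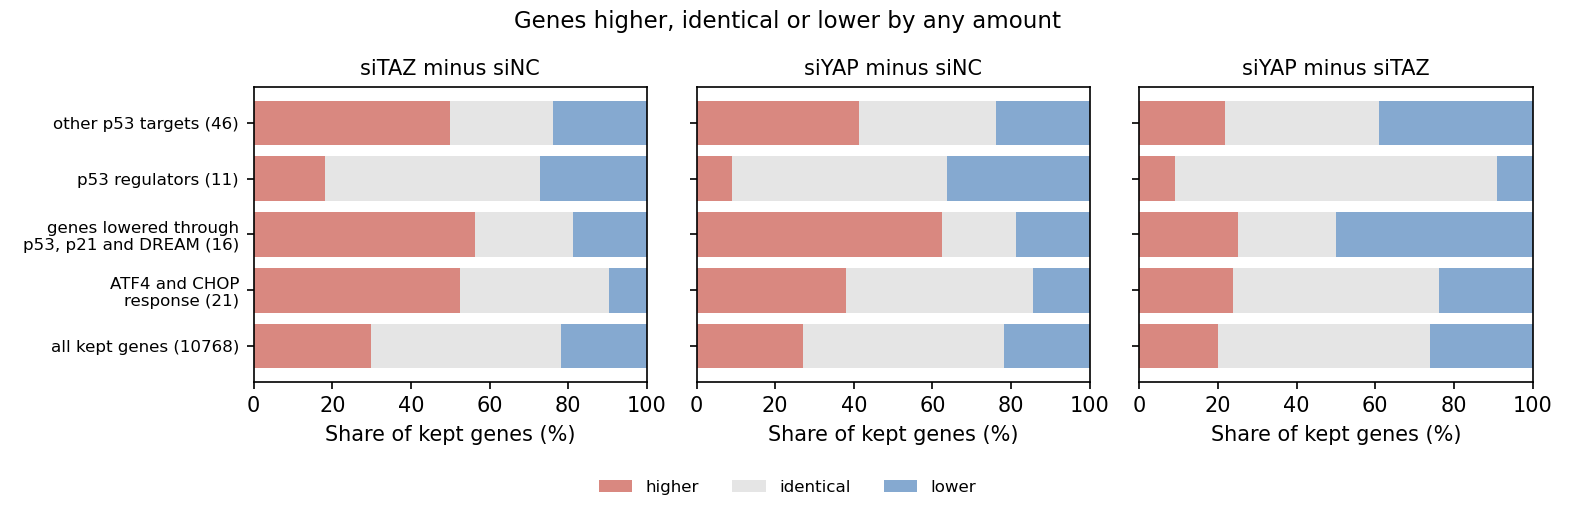
Share (%) of kept genes that were higher, identical or lower by any amount in each comparison, for 4 gene lists and, at the bottom, all 10768 kept genes. In siTAZ minus siNC, 50% of the 46 other p53 targets were higher, beside 29.7% of all kept genes, and the 11 p53 regulators had the smallest higher share, at 18.2%. In that comparison 12 of the 46 targets were identical, beside 48.5% of all kept genes.

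Genes that work with each of the 3 were also read. For GDF15, the convertase FURIN was 0.27 higher in the siTAZ array and 0.41 higher in the siYAP array than in siNC, whereas the receptor genes GFRAL and RET had probe sets under the filter, with one value on all 3 arrays. BMP2, another ligand of the TGF-beta superfamily, was 1.45 higher in both knockdowns, and so did not show the gap between siTAZ and siYAP seen for GDF15. GDF10 was 0.35 and 0.33 higher, from a siNC level of 4.36 that is close to the filter, and GFRA1 was 0.25 lower in the siTAZ array and 0.09 higher in the siYAP array. For CCNG1, 4 of 15 partners and related genes were kept, namely CCNG2, CCNI, GAK and CDK5. The other 11, among them every listed protein phosphatase 2A gene, had no named probe set and have no value here. The 4 kept genes were identical in the siTAZ and siNC arrays, and GAK and CCNI were 0.08 and 0.05 higher in the siYAP array than in siNC. For TP53INP1, 10 of 12 were kept. SQSTM1, an autophagy receptor, was 2.54-fold lower in the siTAZ array and 1.27-fold lower in the siYAP array than in siNC, and GABARAPL2, an LC3 relative, was 0.23 and 0.12 higher.

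The genes most like each of the 3 were those nearest in the pair of differences from siNC, siTAZ minus siNC and siYAP minus siNC, by Euclidean distance. GDF15 had 4 kept genes within a distance of 0.1, CCNG1 had 8 and TP53INP1 had 102, so the TP53INP1 pattern was the least uncommon of them. Nearest to GDF15 were TWSG1, a secreted BMP-binding protein (0.74 in siTAZ and 0.29 in siYAP), RANBP6, KCNQ1DN, LOC100294145 and ULBP3, a ligand of the NKG2D receptor (0.89 and 0.27). Nearest to CCNG1 were ZNF836 (0.58 and 0.11), SAMHD1, which degrades deoxynucleotides (0.55 and 0.06), GPATCH11, the cytokine gene IL15 (0.52 and 0.04) and MOCOS, and the p53 target TRIAP1 came in place 7. Nearest to TP53INP1 were PRAP1 (-0.36 and -0.02), MCFD2, CNTN1, ZNF112 and OGT, the O-GlcNAc transferase (-0.36 and 0). Of the 3 neighbourhoods within 0.1, that of CCNG1 held 1 other listed p53 target and those of GDF15 and TP53INP1 held 0. Listed p53 targets were only 49 of the 10768 kept genes, so no difference between the neighbourhoods is read from these counts.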

How the data were processed

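The 3 arrays (siTAZ, siYAP and siNC, 1 each) were summarised by the authors with RMA, per the submitters' processing notes; neither its version nor a genome build is given in the sources used here. The deposited values name no scale and were read as log2, because of their range (0.96 to 13.5) and the like quartiles of the arrays. RMA quantile-normalizes the arrays, so levels are relative within an array, and levels of different probe sets were not compared.

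Of 53617 probe sets, 16098 had 1 gene symbol, 0 had several and 37519 were unnamed. All 16098 Entrez identifiers matched RefSeq (GRCh38.p14), which changed 0 symbols. The brightest probe set stood for its gene, and genes with a mean at or above the median of all probe sets (4.27) were kept. Differences are log2 values subtracted, and a fold is 2 raised to that. Genes were counted at 1.5-fold and 2-fold. No test or p-value was possible with 1 array per group, and the number of arrays limits the precision.

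Named genes were the 3 genes, WWTR1 and YAP1, the 5 nearest genes to each, p53 list genes at 1.5-fold, and up to 4 genes of each list with the largest difference; others were named after their values were seen. The members, lists and rules were chosen with earlier results of these data known. Python 3.11.15, pandas 2.3.3 and statsmodels 0.14.6 were used. The subtraction of levels was checked on simulated arrays with known differences, which says nothing of the real differences. Alternatives were other scalings, filters, probe set rules and references.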

Additional observations from a re-analysis of the deposited data

Results flagged for a closer look

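ACER2 differed from siNC in opposite directions in the knockdowns, 0.69 higher in the siTAZ array and -0.46, that is lower, in the siYAP array on the log2 scale. Of the genes named by rule, it was the only one whose differences had opposite signs and were each at least 0.1 in size. Outside those genes, AURKA in the list of genes lowered through p53, p21 and DREAM also did so, at -0.11 (siTAZ) and 0.22 (siYAP). These differences between the knockdowns rest on 1 array each and were not tested.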

How the results depend on the processing

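Subtracting a loess trend or repeating the quantile normalization kept the sign of each difference of GDF15, CCNG1 and TP53INP1. Each moved by less than 0.1 on the log2 scale, a limit set by hand as there are no replicates. Shifting to a median of 0 could not change these values, because the median of all kept genes was already 0. Averaging probe sets could not change them either, because each of the 3 genes had 1 probe set. Averaging siNC with the other knockdown as the reference gave 0.66 for GDF15 in the siTAZ array, which stayed past 1.5-fold. For the siYAP array, this reference reversed the sign of GDF15 (-0.15), CCNG1 (-0.19) and TP53INP1 (0.15), as follows from siYAP lying nearer to siNC than to siTAZ. The siTAZ median of the p53 targets ranged from 0 (no filter) to 0.14 (genes with identical siTAZ and siYAP values left out, chosen after seeing the data), and was 0.02 without the 3 genes and 0.07 with the filter at the 75th percentile, which TP53INP1 does not pass. No paired analysis was possible because each group has 1 array. Signal over background was not analysed here.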
